A study of Mus musculus with 178 samples.

Results

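The comparison described here is that of whole blood from non-responding mice on Day 24 with blood of the same mice on Day 17. Libraries were chosen without regard to their values, as non-responder libraries of these days joined by ear tag. For all but 1 of them the response label reads non-responder, and the exception is given below. This gave 60 of the 178 libraries of the series, 30 from each day, in 30 pairs. The mice were C57BL/6J, 6 to 8 weeks old at the start. Each had 4MOSC1 cells (4MOSC in the labels), a carcinogen-induced mouse oral squamous carcinoma line, injected into the tongue or cheek lining, and each received an antibody against PD-1, so both days lie on treatment. No untreated and no tumor-free mice enter the comparison, and day, tumor age and length of treatment cannot be told apart. Non-responders include mice with stable disease, which were not separated from progressing mice here. The ear tags have 3 digits in 23 of these mice and 4 digits in 7, and values by tag series are given beside some of the lists and genes. For 1 mouse the Day 17 label reads responder while its other days read non-responder. It was kept among the non-responders and is called the mouse with conflicting labels. Its tag has 4 digits. Counts of calls without this mouse are given only for the difference from responders.

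Whole blood RNA comes mostly from immature red cells, with smaller parts from lymphocytes, monocytes, neutrophils and platelets. Type I and type II interferons act on nearly all of these cells through STAT transcription factors and switch on a common set of antiviral genes, which makes that set a sensitive readout of interferon exposure. Monocytes, neutrophils and platelets are short-lived and are replaced from the bone marrow, whereas naive T and B cells recirculate through lymph nodes. In bulk blood, fewer cells of a type and less RNA per cell cannot be told apart.

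The depths of both days overlapped. Day 17 libraries held 31837400 to 71013200 counts and Day 24 libraries 45573300 to 67814500. Outside haemoglobin these were 5383210 to 14356400 and 5952980 to 13721500. Haemoglobin took a median of 81.8% of counts on Day 17 and 81.4% on Day 24, a mean difference of -0.0781 percentage points (permutation test, adjusted p = 0.919). The shares of immunoglobulin and mitochondrial counts, the number of genes with a count and the share of the 50 most counted genes were also compared, and each had an adjusted p of 0.645 over the 5 measures (two-sided permutation test). A single Day 24 library was unlike the rest, and its animal, which also has a 4-digit tag, is called the low-complexity mouse. It had counts in 12605 genes, against 15529 to 17915 in the other 59, and a TMM scaling factor of 0.0848, against 0.489 to 1.58. Its scores of the haemoglobin, reticulocyte and platelet lists were the highest of Day 24. Values without this mouse are given for lists whose calls moved by over 1.5 times and by more than 1 gene. Its library also gave the highest Day 24 value printed below for Oas1a, Fcer1g, Nrgn, C3 and B2m, among others. It gave the lowest for S1pr1 and Fcer2a. Without the mouse the log2 fold changes of these genes were -0.70, -0.52, -0.78, -0.69, -0.38, 0.28 and 0.28, in this order. The labelled tissue showed its defining markers. Hbb-bs and Alas2 (red cells), Cd79a (B cells), Cd3e (T cells), Ncr1 (natural killer cells), Csf1r (monocytes), Csf3r (neutrophils) and Pf4 (platelets) had counts in all 60 libraries, whereas Krt5 and Krt14 (epithelium) had 0 counts in 12 and 18 libraries on Day 17 and in 10 and 11 on Day 24.

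From Day 17 to Day 24, 2527 of 12298 genes tested changed (20.5%; edgeR quasi-likelihood test with the mouse as a block, Benjamini-Hochberg adjusted p of at most 0.05). Of these, 1478 (12.0% of genes tested) were lower and 1049 (8.53%) were higher on Day 24. Most changes were small, and 256 genes (2.08%) changed by at least 1.5-fold, 178 of them lower (1.45%) and 78 higher (0.634%). The median log2 fold change over all genes tested was 0.01, and 45.9% of them lay below 0. Without the low-complexity mouse, 3452 of 12283 genes changed (28.1%), 1890 lower (15.4%) and 1562 higher (12.7%), and 2521 of the 2527 were among them. The higher calls depended on some of the settings. DESeq2 size factors in place of TMM gave 1463 lower and 1108 higher calls. When libraries were scaled by their totals only, with haemoglobin included, 493 genes were called lower and 76 higher, and limma on the deposited TPM values, which changes the test, the unit and the filter together, gave 343 lower and 27 higher. The 7 mice with 4-digit tags alone gave 30 lower and 3 higher calls, and the 23 with 3-digit tags 2601 calls in all. The median log2 fold change over all genes was 0.02 in the 4-digit and 0.003 in the 3-digit mice. Shares of all genes below 0 are not given by tag series. The leading higher genes were Ccr3, Clca3b, P2ry14, Crisp3, Inpp5j, Alox15, Atp8a2, Muc4, Prss22 and Il1rl1. The leading lower genes were Oas1g, Oas1a, Oas2, Oasl2, Mras, Tppp3, Axl, Rtp4, Rab36 and Lrrn3.

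**Figure D1:**
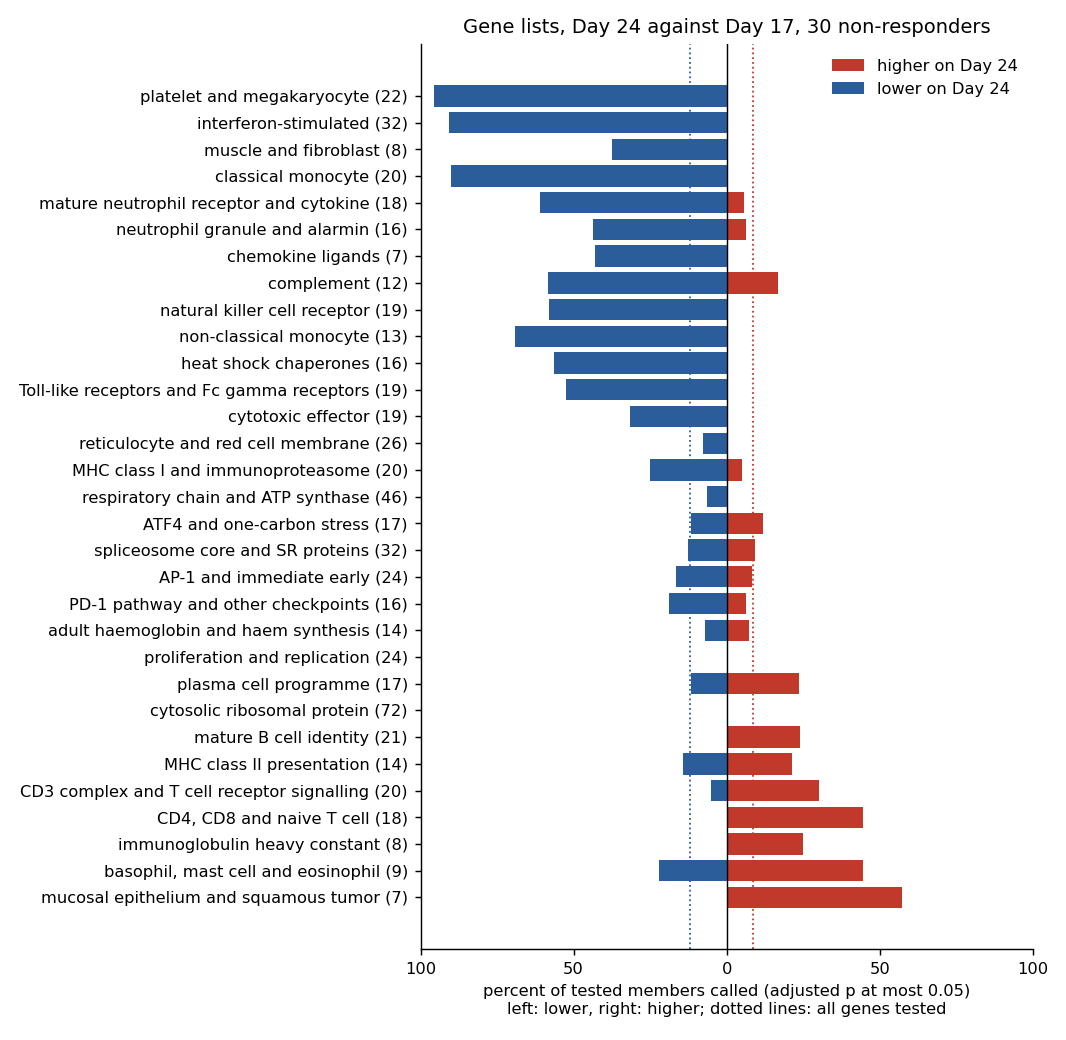
Share of tested members of each of 31 gene lists called lower (left, blue) or higher (right, red) on Day 24 than on Day 17 in 30 non-responders, in percent, with the number of members tested in brackets and lists in order of their median log2 fold change. Dotted lines mark the shares over all genes tested, 12.0% lower and 8.53% higher, and the platelet (21 of 22), interferon-stimulated (29 of 32) and classical monocyte (18 of 20) lists reach farthest to the left.

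The interferon-stimulated genes fell together. Of 32 members, 29 were lower on Day 24, none was higher, and the median log2 fold change was -0.51, against 12.0% lower and a median of 0.01 over all genes tested. Promoters of this set are shown because the interferon-stimulated response element, the site bound by the STAT and IRF complex of type I interferon, is a defining sequence of such genes. RefSeq promoters (GRCm38.p6) were matched by symbol for 23 of the 32 members. The 250 bases before the start were searched on both strands for the motif GAAA, any 2 bases, GAAA, which reads TTTC, any 2 bases, TTTC in reverse. Either was found in 14 of the 23 (60.9%), against 828 of 27025 promoters of the same length in the table (3.06%). Of the promoters of all genes tested, 270 of 9260 held it (2.92%). Of those called lower, 69 of 1131 did (6.10%), 13 of them from this list, and of those called higher 17 of 826 (2.06%). A match describes letters and not a bound site. The 160 bases before the start are printed 5′ to 3′ on the gene's strand for 4 members, at chr5:120907526-120907685 (minus strand), chr11:48871421-48871580 (minus strand), chr19:34583369-34583528 (plus strand) and chr5:114896774-114896933 (plus strand), with each match in capitals.
Oas1a: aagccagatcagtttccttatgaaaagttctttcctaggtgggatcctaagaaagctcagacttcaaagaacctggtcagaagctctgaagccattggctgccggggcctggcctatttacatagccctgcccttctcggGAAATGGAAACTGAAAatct
Irgm1: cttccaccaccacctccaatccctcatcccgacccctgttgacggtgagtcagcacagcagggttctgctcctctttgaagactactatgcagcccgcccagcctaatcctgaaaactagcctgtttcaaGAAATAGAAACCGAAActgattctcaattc
Ifit3: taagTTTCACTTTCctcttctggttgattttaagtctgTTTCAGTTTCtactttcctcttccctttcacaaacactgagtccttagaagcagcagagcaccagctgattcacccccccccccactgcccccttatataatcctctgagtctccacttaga
Oasl2: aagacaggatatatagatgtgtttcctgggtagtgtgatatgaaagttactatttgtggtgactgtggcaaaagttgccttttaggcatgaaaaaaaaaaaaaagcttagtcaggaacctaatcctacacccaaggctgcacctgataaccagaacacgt
In Oas1a, 2 overlapping matches began 20 and 14 bases before the start, and in Irgm1 2 overlapping matches began 30 and 24 bases before it. Ifit3 held 2 separate matches in the reverse orientation, beginning 156 and 122 bases before the start. Oasl2 held none of these letters in the window.

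The 2′-5′ oligoadenylate synthetases, which sense double-stranded RNA and activate RNase L, led the list. Levels are given as CPM, counts scaled to library size with TMM factors over all libraries of the series. Oas2 was at 2.71 to 13.7 CPM on Day 17 (median 7.20) and at 2.17 to 6.18 on Day 24 (median 4.05). The ranges overlapped, yet 29 of 30 mice were lower on Day 24. Its log2 fold change was -0.89 ± 0.09 (SE, adjusted p = 1.24e-07, edgeR). Oas1a was at 2.76 to 8.70 CPM (median 5.64) and then at 2.30 to 6.89 (median 3.41), and fell by 0.68 ± 0.07 on the log2 scale (adjusted p = 5.18e-08, edgeR), in 27 of 30 mice. Oas1g, a close relative of Oas1a that is not on the list and whose reads the counting may share with it, was at 0.404 to 1.73 CPM (median 1.03) and then at 0.165 to 0.852 (median 0.388). It was lower in all 30 mice and fell by 1.27 ± 0.10 (adjusted p = 2.08e-10), the smallest p of the comparison. Oasl2, a further member of the family, was at 14.1 to 53.0 CPM (median 30.4) and then at 7.98 to 62.3 (median 17.0). The highest Day 24 value was that of the low-complexity mouse, and 28 of 30 mice fell, by 0.79 ± 0.09 on the log2 scale (adjusted p = 3.58e-07).

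Other arms of the interferon programme moved the same way. Rtp4, a chaperone of receptor trafficking induced by type I interferon, fell from a median of 8.00 CPM (3.43 to 12.5) to 4.85 (3.16 to 6.92), a log2 fold change of -0.68 ± 0.08 (adjusted p = 1.22e-06). Xaf1, an interferon-induced partner of an apoptosis inhibitor, went from a median of 4.70 CPM (3.00 to 7.81) to 3.46 (2.45 to 4.66) and was lower in 29 of 30 mice. Ifit3, which binds foreign RNA together with its relatives, went from a median of 6.43 CPM (3.23 to 14.9) to 4.08 (2.53 to 7.70), lower in 27 mice. Irgm1, an immunity-related GTPase, went from 13.9 CPM (9.16 to 18.3) to 10.9 (9.20 to 12.9). Ifit3 and Irgm1 were named after their values were seen. The 3 members that did not pass were Rsad2, with a log2 fold change of 0.00, Gbp4, with -0.09, and Iigp1, with -0.18. Averaged over the 32 genes, the score (mean of log2 of CPM + 0.1) ran from 2.67 to 3.92 on Day 17 (median 3.43) and from 2.46 to 3.76 on Day 24 (median 2.93), and it was lower on Day 24 in 28 of 30 mice.

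The list median was below 0 under the other scalings and in each tag series, while the number of calls differed. With library totals only, 18 of the 32 were lower and none was higher (median -0.55), and on TPM 14 of 22 were lower (median -0.38). Without the low-complexity mouse, 29 were again lower. The 23 mice with 3-digit tags gave a median of -0.56 with 29 lower, and the 7 with 4-digit tags a median of -0.26 with 2 lower and 31 of 32 below 0. On earlier days the median score of the same list was 3.02 on Day 4 and 3.40 on Day 9, so that the Day 24 median lay near that of Day 4 and both middle days lay above. These 4 medians are given without a test. The monocyte, platelet and natural killer cell lists also fell between Days 17 and 24 as described next, and their part in the interferon result was not tested.

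**Figure D2:**
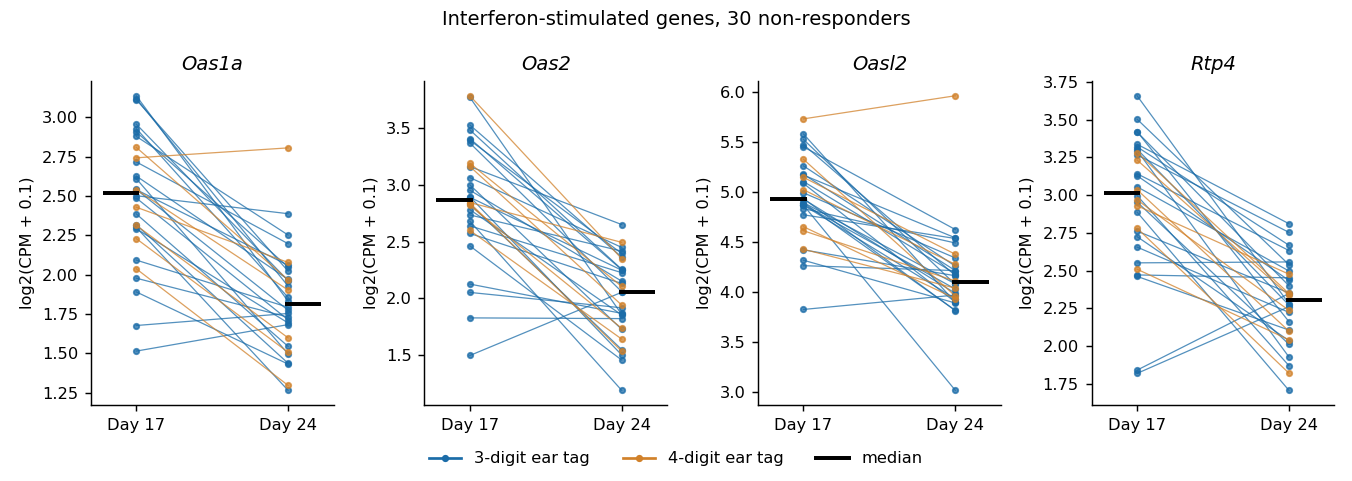
Levels of Oas1a, Oas2, Oasl2 and Rtp4 as log2(CPM + 0.1) in 30 non-responders on Days 17 and 24, with lines joining the 2 samples of a mouse (blue, 3-digit tags; orange, 4-digit tags) and black bars at the medians. Most lines slope down, in 27 mice for Oas1a, 29 for Oas2, 28 for Oasl2 and 27 for Rtp4.

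Genes of classical monocytes, the Ly6C-high cells that leave the marrow in inflammation, also fell. Of 20 genes, 18 were lower on Day 24 and none was higher, with a median log2 fold change of -0.39. Ly6c2, the surface antigen that defines these cells, was at 7.26 to 30.2 CPM on Day 17 (median 14.8) and at 7.11 to 15.2 on Day 24 (median 10.3), with 27 of 30 mice lower (log2 fold change -0.51 ± 0.08, adjusted p = 2.85e-05). Csf1r, the receptor for the growth factor that keeps monocytes alive, was at 22.5 to 57.1 CPM (median 37.2) and then at 19.6 to 40.9 (median 26.7). It fell by 0.38 ± 0.06 (adjusted p = 1.17e-05). Ifi204, a DNA sensor that is itself induced by interferon, fell from a median of 9.06 to 5.52 CPM (log2 fold change -0.70 ± 0.09), and S100a4, a calcium-binding protein of motile cells, from 9.04 to 5.79 CPM (-0.62 ± 0.09). Ms4a6c, a membrane gene of monocytes, fell from 12.5 to 8.82 CPM. The members that did not pass were Ccr2, the receptor for marrow exit, with -0.14, and Ms4a6b, with -0.06.

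The monocyte fall kept its direction under both other scalings, with fewer calls. With library totals only 8 of 20 were lower, and on TPM 13 of 19. The 3-digit mice gave a median of -0.47 with 17 lower, whereas the 4-digit mice gave -0.19 with no call and 16 of 20 below 0. The list's score had its highest median on Day 9, at 4.87, followed by 4.33 on Day 17 and 3.91 on Day 24, against 4.02 on Day 4.

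Of 13 genes of non-classical monocytes, which patrol vessel walls, 9 were lower and none was higher (median -0.24). Treml4, a receptor of these cells, went from a median of 5.58 CPM (2.58 to 10.6) to 4.07 (2.57 to 6.58), and Ace, the angiotensin-converting enzyme, from 34.1 CPM (16.4 to 55.1) to 23.2 (16.0 to 34.1), lower in 26 of 30 mice. Itgal, an adhesion integrin shared with lymphocytes, had a log2 fold change of -0.23 ± 0.04. Cebpb, a transcription factor needed for this lineage, fell by 0.95 ± 0.20 (adjusted p = 0.000915). Cx3cr1, the fractalkine receptor, passed narrowly, at -0.19 ± 0.07 (adjusted p = 0.0490), and was at 0.04 in the 4-digit mice. With library totals only, 1 gene of this list was called lower, at a median of -0.28.

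Many neutrophil genes were lower as well, less evenly. Among 18 genes for receptors and cytokines of mature neutrophils, 11 were lower and 1, BC100530, a stefin-like gene, was higher (0.91), with a median of -0.33. Slfn4, a Schlafen gene that interferon also induces, was at 6.89 to 129 CPM on Day 17 (median 36.5) and at 10.3 to 37.0 on Day 24 (median 19.7), and fell by 0.88 ± 0.15 (adjusted p = 4.84e-05). Cxcr4, the marrow retention receptor, fell by 0.33 ± 0.07, Clec4e, a receptor for fungal and mycobacterial lipid, by 0.34 ± 0.09, and Itgb2, the common chain of the leukocyte integrins, by 0.17 ± 0.04. Of 16 granule and alarmin genes, 7 were lower, and Ltf, lactoferrin of the secondary granules, was higher at 0.73 ± 0.21 (list median -0.31). The log2 fold change of Ltf was 1.00 in 3-digit and 0.02 in 4-digit mice. Its median was 14.6 CPM on Day 9, against 0.907 on Day 17 and 1.64 on Day 24. Chil3, a chitinase-like lectin shared with monocytes, fell from a median of 18.3 CPM (6.47 to 32.2) to 9.20 (4.28 to 62.8), in 27 of 30 mice. Lyz2, lysozyme, went from 298 to 219 CPM, Anxa1, an inhibitor of neutrophil migration, from 17.4 to 13.2, and Ngp, a secondary granule protein, from 1.09 to 0.760. The alarmins S100a8 and S100a9 did not pass, with log2 fold changes of -0.28 ± 0.13 and -0.29 ± 0.12. Nor did the neutrophil markers Csf3r (-0.24 ± 0.09) and Ly6g (-0.51 ± 0.19). Ltf and BC100530 were named after their values were seen. With library totals only, 1 of the 18 and 3 of the 16 were called lower, at medians of -0.37 and -0.33. The median of the receptor and cytokine list was -0.19 in 3-digit mice, with 4 lower, and -0.50 in 4-digit mice, with 1 lower.

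Genes through which myeloid cells sense microbes and antibody followed. Of 19 Toll-like receptor and Fc gamma receptor genes, 10 were lower and none was higher (median -0.18). Library totals only gave 2 of 19 lower (median -0.22), and on TPM 2 of 9 (median -0.21). Fcer1g, the signalling chain shared by Fc receptors, was at 13.8 to 26.1 CPM on Day 17 (median 18.7) and at 9.85 to 39.5 on Day 24 (median 13.0), lower in 28 of 30 mice (log2 fold change -0.49 ± 0.06, adjusted p = 1.48e-06). Fcgr1, the high-affinity IgG receptor and an interferon target, fell from 1.76 to 1.07 CPM, Tlr8, an endosomal RNA sensor, from 3.26 to 2.41, and Fcgr4, an activating IgG receptor, from 4.28 to 2.83.

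Of 12 complement genes, 7 were lower and 2 higher (median -0.26), and with library totals only 3 were lower and none was higher (median -0.30). C3, the central component, was at 7.18 to 23.0 CPM (median 13.5) and then at 6.25 to 20.7 (median 8.54), and fell by 0.66 ± 0.08 (adjusted p = 1.96e-06). Cfp, properdin, which stabilizes the convertase of the alternative pathway, fell by 0.42 ± 0.07, and Itgax, a chain of complement receptor 4, by 0.34 ± 0.05. The higher members were C3ar1, the receptor for C3a (0.55 ± 0.19, with 0.87 in 3-digit and -0.55 in 4-digit mice), and Cd55, which protects cells from complement (0.20 ± 0.05), both named after their values were seen. Of 7 chemokine ligand genes tested of 19, 3 were lower, the platelet products Pf4 and Ppbp and the myeloid chemokine Ccl9 (-0.28 ± 0.09).

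Platelet genes fell nearly throughout. Of 22 members, 21 were lower and none was higher, with a median of -0.54, and the remaining gene, Thbs1, had a log2 fold change of -0.21. P2ry12, the ADP receptor, was at 17.3 to 84.8 CPM on Day 17 (median 33.9) and at 9.58 to 38.3 on Day 24 (median 21.4). It was lower in 28 of 30 mice (-0.62 ± 0.09, adjusted p = 8.66e-06). Gp1ba and Gp5, parts of the receptor for von Willebrand factor, fell from 8.32 to 5.12 CPM and from 14.2 to 8.60 CPM. Nrgn, a calmodulin-binding protein abundant in platelets, fell from 150 CPM (72.6 to 277) to 88.2 (31.8 to 272). The markers Pf4, Ppbp and Itga2b had log2 fold changes of -0.56 ± 0.11, -0.45 ± 0.10 and -0.55 ± 0.11. In this list 21 members were lower with library totals only and 21 of 21 on TPM, and all 22 were below 0 in the 4-digit mice, with a median of -0.50 and no call. Without the low-complexity mouse, whose score rose by 1.41, all 22 were lower (median -0.61). The median score was 4.83 on Day 4, 4.72 on Day 9, 5.14 on Day 17 and 4.47 on Day 24.

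The regulators that red cell precursors share with megakaryocytes, namely Nfe2 (-0.54 ± 0.09) and Tal1 (-0.50 ± 0.11), were the 2 lower genes among 26 reticulocyte and red cell membrane genes, of which none was higher (median -0.09). Without the low-complexity mouse, 8 of the 26 were lower and 1 higher (median -0.20). This list moved with most settings. It had 5 lower and 5 higher with library totals only, 6 lower and 4 higher of 21 on TPM, and 2 lower and 8 higher, at a median of 0.49, without the mouse as a block. Its median was -0.17 in 3-digit and 0.26 in 4-digit mice. Of 14 haemoglobin and haem synthesis genes, Slc25a37, the mitochondrial iron importer, was higher (0.54 ± 0.16) and Slc25a38, a mitochondrial glycine carrier, was lower (-0.14 ± 0.05). This is 14.3% called, below the 20.5% over all genes tested (12.0% lower, 8.53% higher). Library totals only gave 3 higher and 1 lower, and on TPM 4 of 11 were higher and 2 lower. Hba-a1 had a log2 fold change of -0.00 ± 0.25.

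**Figure D3:**
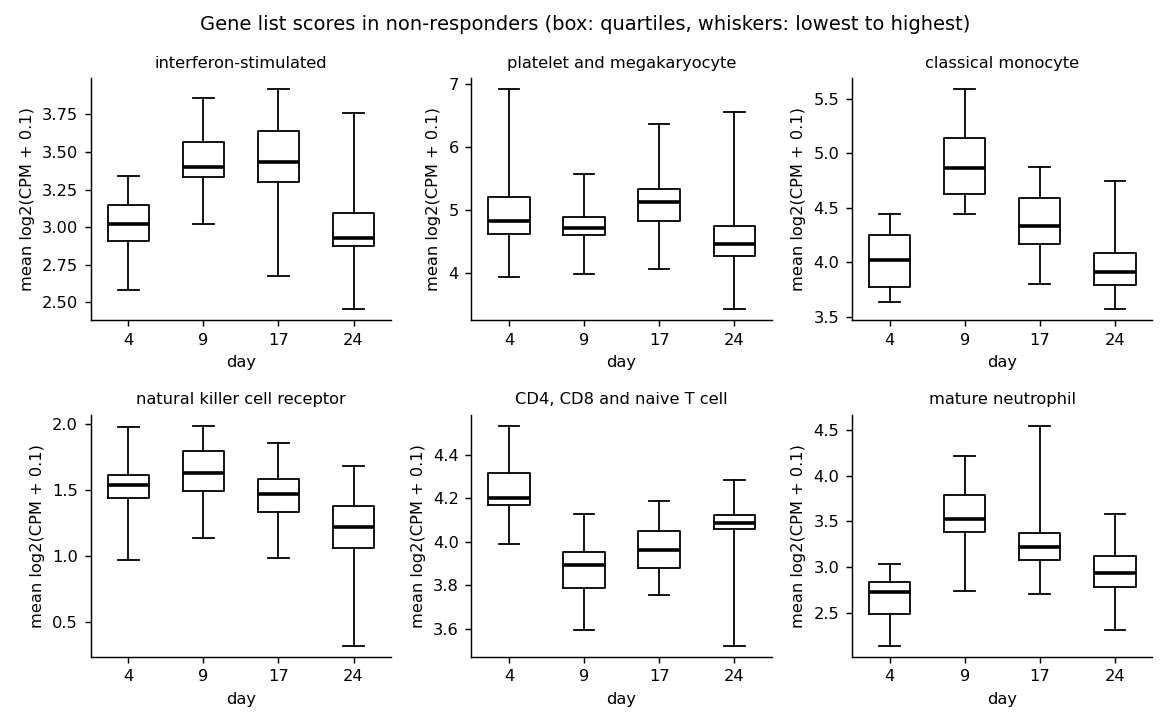
Scores of 6 gene lists, as the mean of log2(CPM + 0.1) over their tested members, in non-responders on Days 4 (29 libraries), 9, 17 and 24 (30 each), with boxes at the quartiles, a line at the median and whiskers to the lowest and highest library. The interferon-stimulated score fell from a median of 3.43 on Day 17 to 2.93 on Day 24, and the naive T cell score rose from 3.96 to 4.09.

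Many natural killer cell genes were lower. Of 19 receptor genes, 11 were lower and none was called higher (median -0.25). Ncr1, the activating receptor that defines these cells, was at 2.36 to 4.80 CPM on Day 17 (median 3.88) and at 1.41 to 5.10 on Day 24 (median 2.99), lower in 24 of 30 mice (-0.30 ± 0.06, adjusted p = 0.000305). Cd244a, a receptor of the SLAM family, fell from a median of 8.41 to 5.96 CPM, Klri2, a lectin-like receptor, from 2.57 to 2.03, and Klra4, an activating Ly49 receptor, from 1.46 to 1.09. Members of the Ly49 family are near-identical, so reads may be divided among them. Of 19 cytotoxic effector genes, 6 were lower and none was higher (median -0.14). The list median was -0.06 in 3-digit mice, with 5 lower, and -0.39 in 4-digit mice, with no call. Gzmb, the granzyme of activated killer cells, went from 3.38 CPM (2.05 to 6.62) to 2.64 (1.15 to 3.71), with 22 of 30 mice lower (-0.50 ± 0.10, adjusted p = 0.000313). Gzma fell by 0.34 ± 0.07, S1pr5, which guides natural killer cells out of tissues, by 0.33 ± 0.08, and Zeb2, a factor of terminal effector cells, by 0.21 ± 0.04. Of the effector T cell genes named by the study, Cxcr3 (0.06 ± 0.06), Cxcr6 (0.01 ± 0.07), Nkg7 (-0.10 ± 0.05) and Tbx21 (-0.22 ± 0.09) did not pass. With library totals only, none of the 19 receptor genes and none of the 19 effector genes passed, at medians of -0.29 and -0.18.

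Among 16 genes of the PD-1 pathway and other checkpoints, 3 were lower and 1 higher, with a median of 0.00. This is 25.0% called, near the 20.5% over all genes tested (12.0% lower, 8.53% higher). Library totals only gave 1 lower and none higher (median -0.03), and on TPM 1 of 3 was lower (median -0.07). Pdcd1, which encodes PD-1 itself, was at 0.0826 to 0.659 CPM on Day 17 (median 0.194) and at 0 to 0.408 on Day 24 (median 0.179), and did not pass (-0.08 ± 0.14, adjusted p = 0.745). Havcr2, which encodes TIM-3 and is also found on myeloid cells, fell from 2.09 CPM (0.848 to 3.57) to 1.43 (0.648 to 1.92), in 28 of 30 mice (adjusted p = 3.37e-06). Tnfrsf9, an activation-induced co-stimulator, fell by 0.45 ± 0.10, and Tnfrsf18, which encodes GITR, rose by 0.22 ± 0.06.

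Some genes of resting T and B cells were slightly higher on Day 24 by the TMM scaling, while most members of the T and B cell lists did not pass. Over all genes tested, 8.53% were higher and 12.0% lower. Of 18 genes of CD4, CD8 and naive T cells, 8 were higher and none was lower, with a median of 0.13. In 3-digit mice 12 were higher (median 0.16), and in 4-digit mice none was called, with a median of 0.03 and 8 of 18 below 0. S1pr1, which lets lymphocytes leave lymph nodes, was at 27.6 to 39.8 CPM on Day 17 (median 34.3) and at 19.7 to 50.0 on Day 24 (median 40.8), higher in 29 of 30 mice (0.26 ± 0.04, adjusted p = 2.43e-05). Ccr7, the lymph node homing receptor, rose by 0.24 ± 0.04, Tcf7, a factor of naive and memory T cells, by 0.19 ± 0.05, and Satb1, a chromatin organizer, by 0.15 ± 0.03. Of 20 genes of the CD3 complex and T cell receptor signalling, 6 were higher and 1 lower (median 0.10). The direction differed by tag series, with 12 higher and a median of 0.15 in 3-digit mice, and no call, a median of -0.09 and 13 of 20 below 0 in 4-digit mice. Cd28, the co-stimulatory receptor, rose by 0.17 ± 0.03, Cd6 by 0.16 ± 0.04 and the adhesion receptor Cd2 by 0.14 ± 0.04, whereas Lcp2, an adaptor shared with myeloid cells, fell by 0.15 ± 0.05. Cd3e (0.10 ± 0.04), Cd4 (0.08 ± 0.05) and Cd8a (0.11 ± 0.04) did not pass.

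Of 21 mature B cell genes, 5 were higher and none was lower (median 0.08), and without the low-complexity mouse, whose B cell score fell by 1.3, 9 were higher (median 0.12). Fcer2a, the low-affinity IgE receptor of follicular B cells, was at 27.0 to 55.7 CPM (median 38.1) and then at 14.5 to 56.4 (median 47.7), higher in 26 of 30 mice (0.25 ± 0.07). Ighd, the heavy chain of naive B cells, rose by 0.20 ± 0.06, Pax5, the B lineage factor, by 0.20 ± 0.06, and Cxcr5, the follicle homing receptor, by 0.19 ± 0.06. The B cell genes Cd22 (0.12 ± 0.07), Cd79a (0.04 ± 0.06), Cd79b (0.08 ± 0.07) and Ms4a1 (-0.04 ± 0.07) did not pass, of which Cd22 passed without the low-complexity mouse (adjusted p = 0.0110). Of 8 immunoglobulin heavy constant genes, Ighd and Ighg2c were higher. Ighg2c was at 0 to 1.02 CPM on both days, with a median of 0.229 on Day 17 and 0.570 on Day 24. Of 17 plasma cell genes, 4 were higher, among them Sdc1, which encodes CD138 (0.42 ± 0.08), and Irf4 (0.19 ± 0.05), and 2 were lower, the endoplasmic reticulum genes Edem1 (-0.23 ± 0.04) and Sdf2l1 (-0.39 ± 0.07). These counts were 6 higher and 5 lower without the low-complexity mouse. With library totals only and on TPM, no gene of these T cell, B cell, plasma cell and immunoglobulin lists was called higher.

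Antigen presentation genes were called in both directions, in part at shares near those over all genes, and with library totals only none was higher, none of class II was lower and 1 of class I was. Of 14 MHC class II genes, 3 were higher, among them the B cell genes H2-Oa (0.19 ± 0.06) and Ciita (0.17 ± 0.06), and 2 were lower, the lysosomal enzymes Ifi30 (-0.43 ± 0.05) and Ctss (-0.16 ± 0.04), with a median of 0.09. Leaving out the low-complexity mouse gave 7 higher. The list median was 0.04 in 3-digit and 0.30 in 4-digit mice. Ifi30, a thiol reductase induced by interferon gamma, fell from 11.4 CPM (7.85 to 20.4) to 8.35 (7.11 to 13.4). Of 20 MHC class I and immunoproteasome genes, 5 were lower and 1, the peptide transporter Tap2 (0.10 ± 0.03), was higher, and 9 were lower without the low-complexity mouse. B2m, the light chain of class I, was at 207 to 455 CPM (median 290) and then at 177 to 378 (median 227), lower in 27 of 30 mice (-0.35 ± 0.06).

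Several of the leading higher genes are genes of eosinophils and of epithelium, and in most of those described here the 3-digit mice had the larger fold changes. Eosinophils are granulocytes that depend on interleukin 5 and enter tissues through the eotaxin receptor. Ccr3, that receptor, was at 0.364 to 5.42 CPM on Day 17 (median 1.5) and at 1.6 to 15.2 on Day 24 (median 3.95), higher in 26 of 30 mice, with a log2 fold change of 1.41 ± 0.21 (adjusted p = 1.05e-05). Alox15, a lipoxygenase of eosinophils, went from a median of 1.4 CPM (0.265 to 5.4) to 3.20 (1.00 to 10.7), also higher in 26 mice (1.10 ± 0.19). Siglecf, an eosinophil lectin, had 0.67 ± 0.16, and Il5ra, the interleukin 5 receptor that some B cells also carry, 0.42 ± 0.08. In the 23 mice with 3-digit tags the log2 fold changes of Ccr3, Alox15 and Siglecf were 1.81, 1.40 and 1.01, and in the 7 with 4-digit tags 0.03, -0.00 and -0.58, with none called there. Il5ra had the opposite order, with 0.37 and 0.60. The difference between the tag series was not tested. Of the 14 responders with both days, 10 have 4-digit tags. Responders fitted alone had log2 fold changes of 1.92, 1.34, 0.99 and 0.80 for Ccr3, Alox15, Siglecf and Il5ra, all called. Of the 9 genes tested on the basophil, mast cell and eosinophil list of 16, these 4 were higher in non-responders. The 2 lower genes were Gata2 (-0.48 ± 0.11), a factor of mast cells, basophils and progenitors, and Hdc (-0.49), which makes histamine. The list's median was 0.21 and -0.21 on TPM, where 2 of its genes were left. Library totals only gave 2 higher and none lower (median 0.14). In 4-digit mice none was higher and 1 was lower (median -0.15). The eosinophil granule gene Epx had 0 counts in 28 libraries on Day 17 and in 20 on Day 24.

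Il1rl1 and Inpp5j had the same order of tag series. Il1rl1, the interleukin 33 receptor of mast cells and type 2 lymphocytes, had a log2 fold change of 0.65 ± 0.13, with 0.87 in 3-digit and -0.14 in 4-digit mice, and Inpp5j, a phosphoinositide phosphatase, 1.18 ± 0.20, with 1.55 and -0.16. P2ry14, a receptor for UDP-glucose, rose from 0.315 to 0.573 CPM, Crisp3, a secreted protein, from 0.466 to 0.725, and Atp8a2, a lipid flippase, from 0.146 to 0.271. Crisp3 had the opposite order, with 0.46 in 3-digit and 1.08 in 4-digit mice.

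Of 23 genes of mucosal epithelium and squamous tumor, 7 had counts enough for a test and 4 were higher, none lower, with a median of 0.83. Krt13, the keratin of non-cornified oral lining, was at 0 to 2.96 CPM on Day 17 (median 0.414) and at 0.157 to 7.38 on Day 24 (median 1.12), higher in 23 of 30 mice (1.34 ± 0.33, adjusted p = 0.00350). S100a14 (1.24 ± 0.31), Krt6b (1.19 ± 0.35) and Sfn, which blood cells also express (0.15 ± 0.04), were the others. Epcam did not pass (0.02 ± 0.14). Outside the list, Muc4, a membrane mucin, went from 0.750 CPM (0 to 9.96) to 3.21 (0.455 to 13.3), higher in 25 of 30 mice (1.62 ± 0.32), and Prss22, an airway tryptase, from 0.469 to 1.15 CPM. Clca3b, of a family of secreted chloride channel regulators, went from 0.115 to 0.483 CPM (1.70 ± 0.26). In 3-digit mice Krt13, Muc4, Prss22 and Clca3b had log2 fold changes of 1.82, 2.27, 1.57 and 2.33. In 4-digit mice these were 0.08, 0.04, 0.18 and 0.40. Levels of Muc4 and Krt13 tended to be higher in 4-digit mice already on Day 17, which was not tested. Muc4 then reached 2.98 CPM in 3-digit and 9.96 in 4-digit mice, and Krt13 was at 0 to 1.75 and 0.537 to 2.96. On Day 24 Muc4 was at 0.455 to 13.3 CPM in 3-digit and 2.23 to 10.9 in 4-digit mice. Krt13 was at 0.157 to 7.38 and 0.528 to 3.21. Among the 7 mice with 4-digit tags, the low-complexity mouse went from 9.96 to 4.99 CPM of Muc4 and from 2.96 to 1.9 of Krt13. The mouse with conflicting labels went from 9.05 to 2.23 CPM of Muc4 and from 2.83 to 0.528 of Krt13. Of the other 5, Muc4 was higher on Day 24 in 3 and Krt13 in 4. Over all non-responders on Day 9, the medians of Krt13, Muc4, Prss22 and Clca3b were 3.52, 12.3, 4.43 and 4.98 CPM, above those of Days 17 and 24.

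Of 8 muscle and fibroblast genes tested, 3 were lower, the collagen chains Col1a1 (-1.09 ± 0.33) and Col1a2 (-0.94 ± 0.25) and the proteoglycan Dcn (-0.87 ± 0.26). Col1a1 was at 0.0123 to 26.4 CPM on Day 17 (median 0.523) and at 0 to 2.45 on Day 24 (median 0.232), and the ranges overlapped. Its log2 fold change was -0.39 in 3-digit and -2.62 in 4-digit mice. The muscle genes Acta1 and Ckm had 0 counts in 6 and 15 libraries on Day 17 and in 8 and 15 on Day 24.

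**Figure D4:**
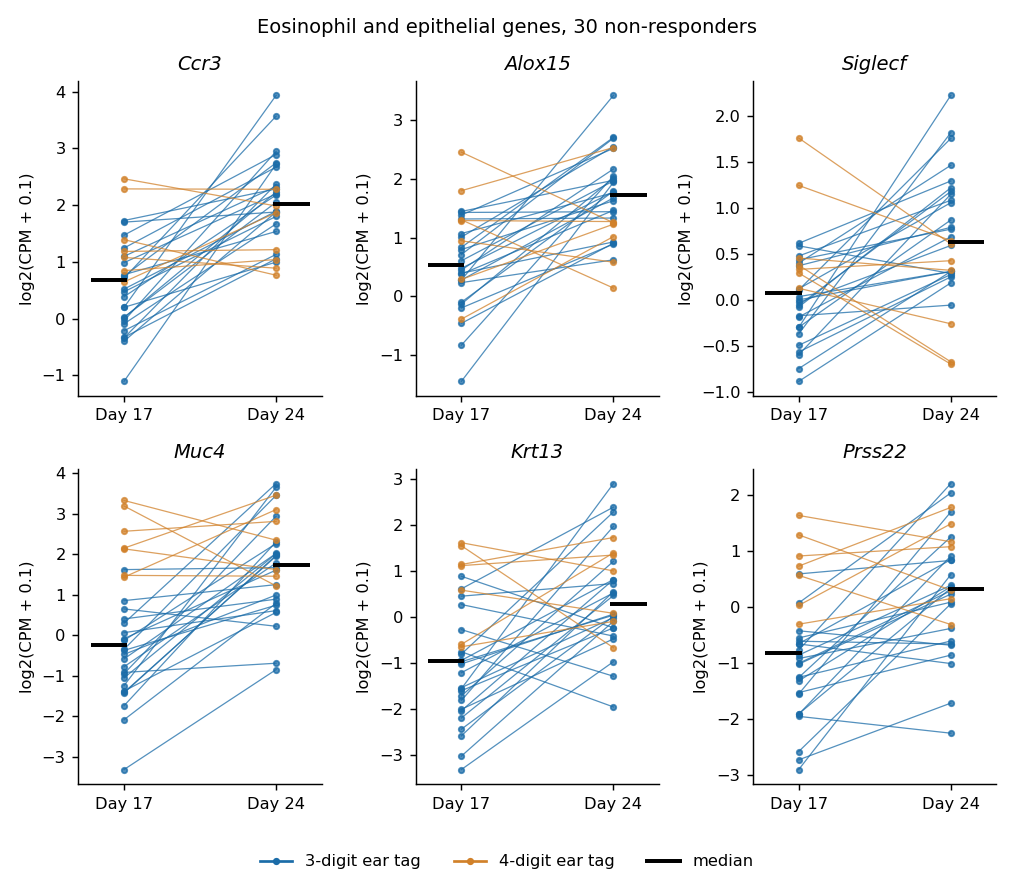
Levels of 3 eosinophil genes and 3 epithelial genes as log2(CPM + 0.1) in 30 non-responders on Days 17 and 24, with lines joining the 2 samples of a mouse (blue, 3-digit tags; orange, 4-digit tags) and black bars at the medians. Ccr3 rose in 26 mice, and Siglecf had a log2 fold change of 1.01 in 3-digit and -0.58 in 4-digit mice.

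Of 16 heat shock chaperones, 9 were lower and none was higher (median -0.20), and 12 were lower without the low-complexity mouse. Library totals only gave 1 of 16 lower (median -0.26), and on TPM 1 of 11 (median -0.21). Hspa1b, the inducible Hsp70 (-0.43 in 3-digit and -1.85 in 4-digit mice), was at 0.198 to 2.48 CPM (median 0.556) and then at 0.125 to 2.14 (median 0.365), and fell by 0.80 ± 0.17. Hspa8, the constitutive Hsp70, fell by 0.35 ± 0.07, the co-chaperone Stip1 by 0.35 ± 0.09 and Dnaja1 by 0.34 ± 0.09. The 4-digit mice had a list median of -0.65 with 6 of 16 lower and the 3-digit mice -0.09 with 3 lower, and the difference was not tested. The other stress lists lay near the shares over all genes (12.0% lower, 8.53% higher). Of 24 AP-1 and immediate early genes (median -0.00), 4 were lower, among them Nr4a1, Dusp1 and Fosl2 (-0.29 ± 0.07, -0.37 ± 0.11 and -0.28 ± 0.09), and 2 were higher, among them Egr3 (0.29 ± 0.07). Leaving out the low-complexity mouse gave 6 lower and 5 higher of the 24, and library totals only gave no call. Of 17 genes of the ATF4 and one-carbon response (median -0.05), 2 were higher and 2 lower. Mthfd2, a mitochondrial folate enzyme, was higher (0.79 ± 0.21), as was the amino acid transporter Slc7a5 (0.49 ± 0.16), and these were 0.69 and 0.40 without the low-complexity mouse, and Ddit4, an inhibitor of mTOR signalling, was lower (-0.74 ± 0.12), as was Cebpb. Without that mouse, 4 of the 17 were lower and 3 higher.

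Housekeeping groups showed little. None of 72 cytosolic ribosomal protein genes and none of 24 proliferation genes passed in edgeR's test, with 2 and 5 at an unadjusted p under 0.05. DESeq2 called 1 and 1, and the Wilcoxon signed-rank test 8 and 1. The smallest p in edgeR belonged to Rpl13a (0.18 ± 0.07, adjusted p = 0.0613) and Cdca8 (-0.34 ± 0.13, adjusted p = 0.0527), and both of these genes passed without the low-complexity mouse, as did 2 proliferation genes that were higher. Of 46 respiratory chain genes, 3 were lower, Cox5a (-0.36 ± 0.09), Cox5b (-0.22 ± 0.07) and Cox6b1 (-0.22 ± 0.08). This is 6.52% called, below the 12.0% lower over all genes tested. Without the low-complexity mouse 7 of the 46 were lower, a share near the 15.4% lower over all genes in that fit. Of these 46 genes, 45 were below 0 in 3-digit mice and 12 in 4-digit mice. The ribosomal protein list had a median of -0.01 with 45 of 72 below 0 in 3-digit mice, and of 0.37 with 1 of 72 below 0 in 4-digit mice. Of 32 spliceosome genes, 4 were lower, among them Tra2a (-0.19 ± 0.05) and Snrpa (-0.12 ± 0.04), and 3 higher, among them Snrnp200 (0.12 ± 0.04) and Prpf8 (0.11 ± 0.03), shares near those over all genes, and none was called with library totals only or on TPM.

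Some leading lower genes belong to no list. Axl, a receptor kinase that clears dying cells and restrains interferon signalling, went from 1.33 CPM (0.604 to 1.92) to 0.791 (0.371 to 1.65), lower in 27 of 30 mice (-0.64 ± 0.08, adjusted p = 9.58e-07). Mras, a small GTPase, fell from 1.89 to 1.09 CPM in all 30 mice (-0.78 ± 0.09). Lrrn3, a leucine-rich repeat protein that marks naive T cells in human blood, fell from 10.6 to 6.63 CPM in 29 mice (-0.65 ± 0.08), while 8 of the 18 genes of the naive T cell list were called higher. Tppp3, a tubulin-binding protein, fell from 4.73 to 2.58 CPM and Rab36, a Golgi GTPase, from 0.691 to 0.421 CPM.

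The change in non-responders was set against that of 14 responders with both days, by the test of the difference of the changes. It differed for 74 of 13030 genes (0.568%), with the non-responder change above that of responders in 32 (0.246%) and below it in 42 (0.322%). No interferon-stimulated, platelet or classical monocyte gene was among them. In responders, fitted alone, 24 of 32 interferon-stimulated genes were lower (median -0.47, against -0.51 in non-responders), 8 of 22 platelet genes (median -0.32) and 11 of 20 classical monocyte genes (median -0.35), with 22.1% of all genes called, 11.2% lower and 10.9% higher. Some other lists had medians farther apart, and the difference was not tested for whole lists. In responders 13 of 21 mature B cell genes were higher (median 0.37, against 0.08 in non-responders), and 9 of 14 MHC class II genes were higher (0.44 against 0.09). Of the heat shock chaperones 15 of 16 were lower (-0.54 against -0.20). Of 18 mature neutrophil receptor and cytokine genes, 12 were lower and 1 higher (-0.64 against -0.33). The 4-digit non-responders alone had medians of 0.16, 0.30, -0.65 and -0.50 for these lists, in this order. No gene of these lists was among the 74, and Ighd, Pax5 and H2-Oa passed the edgeR test of the difference without the low-complexity mouse (adjusted p = 0.0429, 0.0318 and 0.0366). Of the 74 genes, 71 passed within responders and 19 within non-responders. The 3 leading genes of either direction, by p, had log2 fold changes of -0.03 to 0.08 in non-responders. 5330438D12Rik had a log2 fold change of 0.06 ± 0.07 in non-responders and -0.75 in responders (difference 0.81 ± 0.16, adjusted p = 0.0301), Dcun1d5, of the neddylation machinery, -0.02 and -0.49, and Slc25a45, a mitochondrial carrier, -0.03 and -0.41. In the other direction were Crtc1, a CREB coactivator, with 0.08 and 0.46, Nf1, the Ras inhibitor neurofibromin, with 0.02 and 0.37, and Gys1, glycogen synthase, with -0.01 and 0.46. Of the lists, Klre1 of the natural killer cell receptors (difference 0.60 ± 0.14), Srsf7 (0.48 ± 0.11) and Sf3a2 (-0.32 ± 0.07) of the spliceosome and Tlr9 (-0.44 ± 0.10) were among the 74, named after their values were seen.

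Response and tag series overlap. Tags of 4 digits belong to 10 of 14 responders but to 7 of 30 non-responders. With the tag series by day as a term in the same edgeR fit, the count of genes that passed was 0, with 1568 genes at an unadjusted p under 0.05 against 1969 without the term, and all 74 kept their sign. Both tag series occur in both response groups, but this fit did not separate response from tag series for these genes. The size of the differences under the term is not given here. Without the low-complexity mouse, 213 genes differed (1.64%), and without the mouse with conflicting labels, 121.

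**Figure D5:**
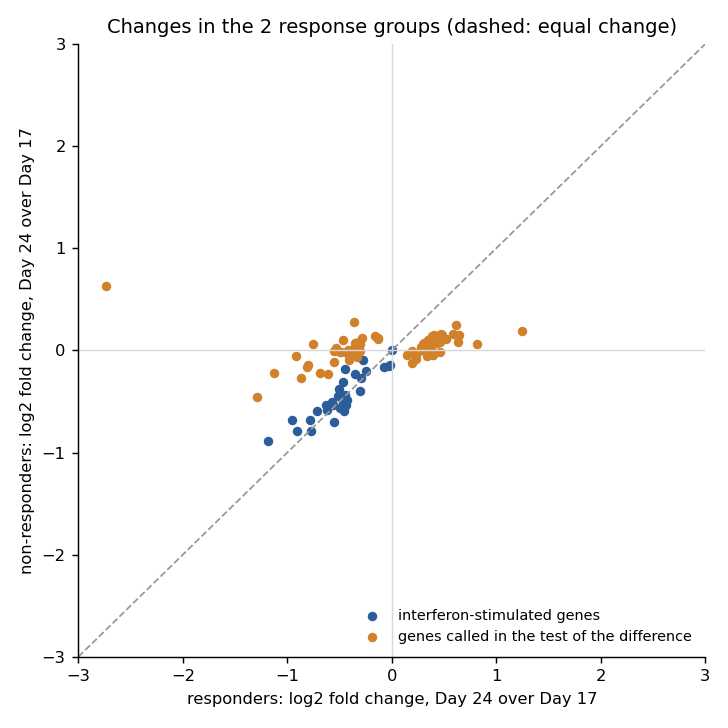
Log2 fold change of Day 24 over Day 17 in 30 non-responders (vertical axis) against that in 14 responders (horizontal axis), each from its own fit, for the 32 interferon-stimulated genes (blue) and the genes called in the test of the difference (orange), with a dashed line at equal change. The interferon-stimulated genes have medians of -0.51 and -0.47, and 71 of the 74 genes of the difference passed within responders against 19 within non-responders.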

How the data were processed

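Polyadenylated RNA from retro-orbital whole blood was sequenced (SMARTer mRNA-Seq kit). The submitters' processing notes name STAR and the build mm10; the counting tool and its annotation are not given in the sources used here. The authors deposited estimated counts per gene, which need not be whole and were rounded before testing, and TPM per gene symbol, which were used in 1 alternative. All 55450 gene identifiers match GENCODE M21. The planned tests assumed whole counts and were kept after rounding. Strand use in counting is not stated.

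Day 24 was compared with Day 17 by edgeR 4.0.16 (R 4.3.3) with TMM scaling, filterByExpr, the mouse as a block and a quasi-likelihood F test, with Benjamini-Hochberg adjustment over all genes tested. Standard errors are the size of the log2 fold change divided by the root of F. The pairing comes from the ear tag. Deviations of the 2 days of a mouse had a mean correlation of 0.0815 (-0.157 to 0.295), against 0.000126 between mice. It was above 0.1 in 15 of 30 mice, and 3 of 30 Day 17 libraries were closest to their own mouse on Day 24. The difference of the changes was tested in 1 model over 30 non-responders and 14 responders. Library measures were compared by a two-sided sign-flip permutation test with 100000 resamples. CPM were scaled by TMM factors over 178 libraries.

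Genes were named by a rule: the 10 smallest p in each direction among called genes of at least 1.5-fold with an assigned symbol, up to 4 called members of each list (where none was called, the member with the smallest p), 12 genes of the study and 3 in each direction of the difference. Of these, 2 genes are not reported here. The lists (31) and the members were chosen with earlier results of these data known. Lists share genes. The scripts were checked on simulated data. DESeq2 1.42.0, limma 3.58.1 and a Wilcoxon signed-rank test served as alternatives. Genes with few counts have the larger counting error. Where nothing says that samples are separate draws, p-values measure the spread between these samples.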

Additional observations from a re-analysis of the deposited data

Results flagged for a closer look

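The change from Day 17 to Day 24 differed between non-responders and responders for 74 genes by the edgeR test of the difference, and this number is listed because 2 response groups under the same contrast gave different changes. It was 0 with the tag series by day as a term.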

How the results depend on the processing

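The tests below rest on 30 mice, 7 of them with 4-digit tags, so that calls within that series are limited by its size. The 2527 calls (1478 lower, 1049 higher) became 569 (493 and 76) with library totals only, 370 (343 and 27) by limma on TPM, 33 (30 and 3) in the 4-digit series, 256 (178 and 78) with a 1.5-fold minimum and 1434 (981 and 453) at an adjusted p of at most 0.01. In the paired design, leaving out the mouse as a block gave 2879 calls, 2388 of them shared, and 1654 higher calls without the low-complexity mouse as well, an alternative chosen after seeing the data. The number of genes whose change differed from that of responders was 213 without the low-complexity mouse, 121 without the mouse with conflicting labels and 0 with the tag series as a term, also added after seeing the data. The mean difference in genes with a count was -155 and, with 1 of these 2 mice left out, lay between -157 and 2.62, the latter without the low-complexity mouse. List medians moved by more than the spread between mice on TPM for the plasma cell list (-0.0803) and in the 4-digit series for the CD3 (-0.0852), checkpoint (-0.20), heat shock (-0.65) and muscle and fibroblast (-1.69) lists.

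Among the 159 named genes with a test, sign changed in the 4-digit series for Inpp5j (-0.16), Alox15 (-0.00198), Il1rl1 (-0.14), Siglecf (-0.58), C3ar1 (-0.55), Ctss (0.00952), Psme1 (0.0381), H2-T22 (0.0331), Cx3cr1 (0.037), Cxcr3 (-0.14), Cxcr6 (-0.31), Gys1 (0.15), Cd3d (-0.16), Cd3e (-0.0466), Cd4 (-0.159), Cd8a (-0.0522), Ccr2 (0.0726) and Hba-a1 (0.257). It changed in the 3-digit series for Pdcd1 (0.0219), Dcun1d5 (0.0164), Epcam (-0.0451) and Col3a1 (0.478), with library totals only for Cxcr6 (-0.0237), Nf1 (-0.0294) and Epcam (-0.0252), and on TPM for Cd79a (-0.0373) and Alas2 (-0.000911). It changed by the Wilcoxon test for Epcam (-0.0019) and Hba-a1 (0.0227), and for Hba-a1 with a lower count filter (0.00395) and a higher one (0.00628). It changed without the replicate block for Cxcr6 (-0.00153) and Hba-a1 (0.322) and, without the low-complexity mouse too, for Ms4a1 (0.00125), Alas2 (-0.0404) and Hbb-bs (-0.00821). With each mouse left out in turn, values crossed 0 for Cxcr6 (-0.0165 to 0.0363), Ms4a1 (-0.0558 to 0.00346), Dcun1d5 (-0.035 to 0.00658), Gys1 (-0.033 to 0.0113), Alas2 (-0.00622 to 0.139), Epcam (-0.037 to 0.0753) and Hba-a1 (-0.0892 to 0.0554). Without the block, the called genes Tap2, Ppbp, Dcn, Cx3cr1 and Ltf no longer passed, and Cdca8 and Rpl13a were among those that newly passed. The cause of these changes was not tested.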
